A study of Mus musculus with 30 samples.

Results

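The platelet collagen receptor GPVI (gene Gp6), the podoplanin receptor CLEC-2 (gene Clec1b) and 8 genes that carry their signal were followed through platelets and peripheral blood mononuclear cells (PBMCs) of mice inoculated with B16F10 melanoma cells or with vehicle alone. They were chosen by function: the Ensembl gene identifiers of both count tables were matched to gene symbols, and Gp6, Clec1b, Fcer1g, Syk, Lyn, Fyn, Lcp2, Plcg2, Btk and Vav1 were taken, 10 of 54532 genes. All 10 were found and all 10 passed the filter on low counts in every comparison.

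GPVI binds collagen, and CLEC-2 binds podoplanin on lymphatic endothelium, fibroblasts and some tumor cells. GPVI signals through the Fc receptor gamma chain (gene Fcer1g), which carries an immunoreceptor tyrosine-based activation motif (ITAM), while CLEC-2 has a single such tyrosine motif in its own tail. The Src family kinases Lyn and Fyn phosphorylate these tyrosines, Syk docks there, and the adaptor SLP-76 (gene Lcp2), the exchange factor Vav1 and the kinase Btk bring phospholipase C gamma 2 (gene Plcg2) into action, which releases calcium and activates the platelet. B cells, T cells, NK cells and myeloid cells use the same kinases and adaptors below their own ITAM receptors, so the receptors mark platelets and the lower members do not.

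Blood came from female C57BL/6 mice that were 6 to 8 weeks old when the experiments began. Mice of the O group received 100000 cells of the B16F10 melanoma line under the skin of the right flank and had large tumors, and mice of the S group received 2000 cells and had no visible tumor at autopsy on day 14. Mice of the C group received 100 µl of Hanks' balanced salt solution alone, the vehicle that all groups had in common. Each group had 5 platelet libraries and 5 PBMC libraries, 30 in all, and each library held RNA pooled from 3 to 10 mice by the labels, which differ from the methods for some platelet pools of the S group. Platelets were pelleted from platelet-rich plasma of EDTA blood, and PBMCs were prepared from the layer left beneath that plasma, so both can come from the same mice. By the labels, same-numbered O group pools held equal numbers of mice in both tissues, and the tests between tissues treated all pools as independent. Pools, not mice, are the replicates, and P values measure the spread between pools.

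Total counts ran from 12259036 to 25360080 in platelet libraries and from 13390983 to 15973449 in PBMC libraries. In PBMC pool 3 of the S group 32900 genes had at least 1 count, against 20540 to 22991 in the other PBMC libraries, and the cause was not tested. The labels name both kinds of sample PBMC under cell type, and titles and sources were used to tell them apart. Levels are CPM, counts scaled to the same library total, and the summed CPM of 12 platelet markers such as Pf4 and Itga2b was 22254 to 102300 in platelet libraries and 717 to 7546 in PBMC libraries, so the tissues matched their titles. Platelet libraries also held RNA of markers of other blood cells. There 8 B cell markers summed to 424 to 1545 CPM against 944 to 1783 CPM in PBMCs, and 9 T cell markers to 127 to 353 CPM against 409 to 809 CPM. In the edgeR tissue test described below, 2 of these B cell markers were called higher in platelets and 6 lower. Of the T cell markers 0 were called higher and 8 lower, where 36.7% of all genes were called higher and 44.7% lower. Of the monocyte markers, Lyz2 was 840 to 4701 CPM in platelets and 1274 to 3363 CPM in PBMCs, and the other 7 summed to 67.7 to 303.8 CPM and 592 to 1074 CPM. The source of this marker RNA and the part of these cells in the levels of the shared kinases and adaptors were not tested. Globin and other erythroid markers took 4.18% to 41.2% of the counts of platelet libraries and 3.35% to 27.2% of those of PBMC libraries. CPM values were scaled over all 30 libraries by TMM (trimmed mean of M-values), and in bulk RNA fewer cells of a type and less RNA per cell cannot be told apart.

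The receptors separated platelets from PBMCs in every library. In platelets Gp6 was 1112, 936, 363, 668 and 623 CPM in pools 1 to 5 of the C group, 556, 547, 831, 403 and 462 CPM in the S group, and 393, 1141, 418, 839 and 273 CPM in the O group. In PBMCs it was 21.3, 44.9, 9.68, 47.9 and 46.5 CPM in the C group, 33.1, 29.6, 23.6, 34.9 and 24.9 CPM in the S group, and 54.2, 23.1, 27.8, 50.9 and 16.6 CPM in the O group. The lowest platelet pool, O group pool 5, stood above the highest PBMC pool, O group pool 1, and within each tissue the 3 groups overlapped.

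Clec1b showed the same separation. In platelets it was 3394, 2895, 1542, 1794 and 1550 CPM in the C group, 1758, 1867, 2699, 1298 and 1143 CPM in the S group, and 2138, 3453, 1585, 3843 and 782 CPM in the O group. In PBMCs the values were 42.3, 88.9, 20.1, 133.7 and 97.9 CPM in the C group, 79.3, 67.6, 47.9, 78.9 and 54.7 CPM in the S group, and 176.6, 51.8, 59.6, 124.4 and 38.5 CPM in the O group. Of the extremes, 3 were in the same pools as for Gp6, namely pool 5 of the O group for the lowest platelet value, pool 1 of the O group for the highest PBMC value and pool 3 of the C group for the lowest PBMC value, while the highest platelet value was in pool 4 of the O group for Clec1b and in pool 2 for Gp6. Clec1b shares exon bases on the same strand with Clec9a, a dendritic cell receptor, and Clec9a held 2086 counts against 357573 for Clec1b in platelet libraries and 938 against 25480, or 3.68%, in PBMC libraries.

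**Figure D1:**
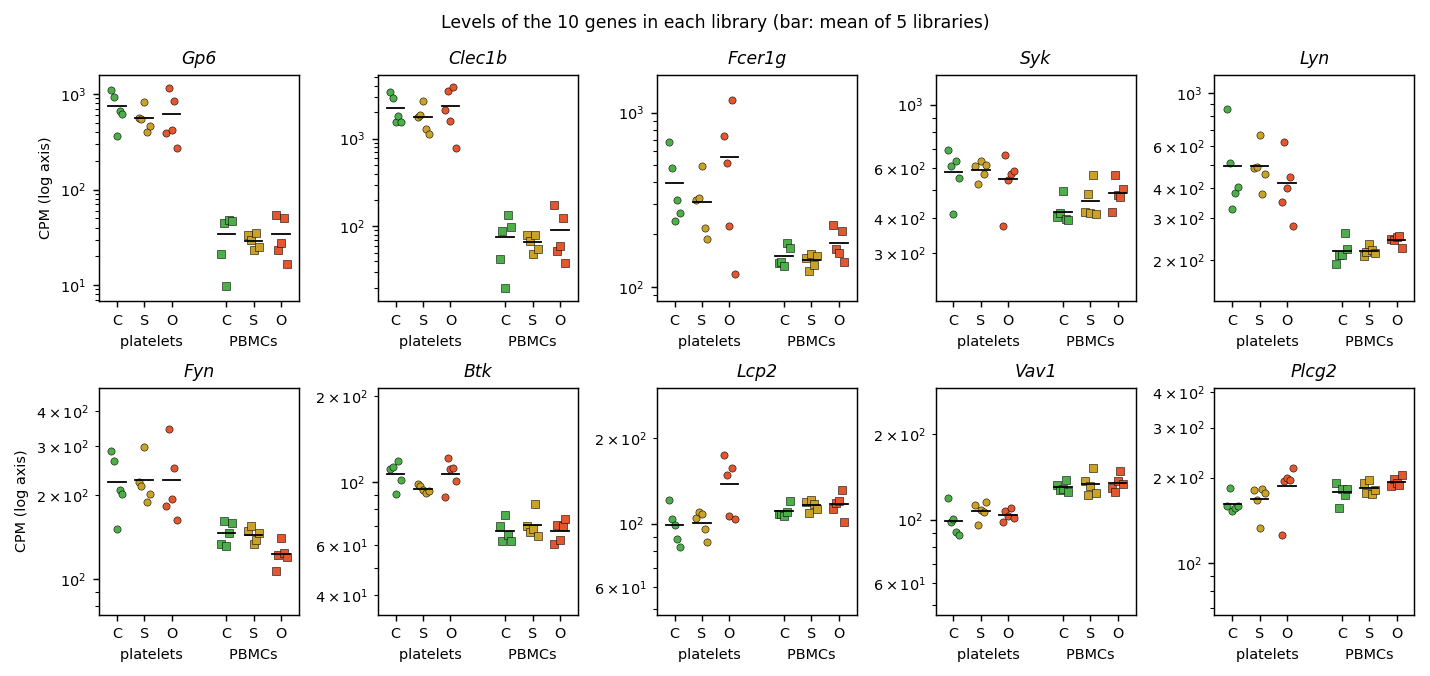
Level of each of the 10 genes in CPM (TMM over all 30 libraries, log axis) in platelets (circles) and PBMCs (squares) of the C, S and O groups, with 1 point per pool and a bar at the mean of 5. Gp6 (272.9 to 1141 CPM in platelets, 9.68 to 54.2 CPM in PBMCs) and Clec1b have no overlap between the tissues, with 19.6-fold and 27.5-fold differences in the fit. The other 8 genes lie much closer together, though Lyn, Btk and Vav1 have no overlap either, as is true of 26.5% of all tested genes. The 3 groups overlap in each tissue.

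In edgeR's quasi-likelihood test over 14342 genes, with group as a term, Clec1b was 27.5-fold higher in platelets (log2 fold change 4.78, SE 0.29, adjusted P = 2.9e-15) and Gp6 was 19.6-fold higher (4.29, SE 0.26, adjusted P = 2.0e-15). Fcer1g, the ITAM chain of GPVI and of Fc receptors of myeloid cells, was 2.62-fold higher (1.39, SE 0.22, adjusted P = 1.2e-06). Among the 7 shared kinases and adaptors, Lyn (1.06, SE 0.12), Fyn (0.72, SE 0.10), Btk (0.59, SE 0.06) and Syk (0.34, SE 0.09) were called higher, Vav1 was called lower (-0.35, SE 0.05), and Lcp2 (-0.03, SE 0.08, adjusted P = 0.71) and Plcg2 (-0.10, SE 0.07, adjusted P = 0.16) were not called. That is 7 of 10 higher and 1 lower, where 81.5% of all tested genes were called, 36.7% higher and 44.7% lower, so a call alone sets no member apart. Gp6, Clec1b, Lyn, Btk and Vav1, 5 of 10, had no overlap between the 15 platelet and the 15 PBMC libraries, as did 26.5% of all tested genes. On total counts, an alternative added after the values were seen, Gp6, Clec1b and Vav1 had none, 3 of 10 against 31.3% of genes.

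The direction of 4 of the 7 shared genes depended on the scaling, and that of the receptors did not. With total counts alone the median log2 fold change of all genes moved from -0.12 to -1.34, and the members split into 2 higher and 6 lower, where 12.9% of all genes were called higher and 78.7% lower. Clec1b (3.51) and Gp6 (3.02) stayed higher, Syk (-0.89), Fyn (-0.55) and Btk (-0.64) turned from higher to lower, Lyn (-0.23, adjusted P = 0.066) and Fcer1g (0.05, adjusted P = 0.79) were no longer called, and, with the sign they had under TMM, Lcp2 (-1.30), Plcg2 (-1.30) and Vav1 (-1.58) were lower in this edgeR fit. TMM factors were 0.386 to 1.01 in platelet libraries and 0.931 to 1.77 in PBMC libraries.

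**Figure D2:**
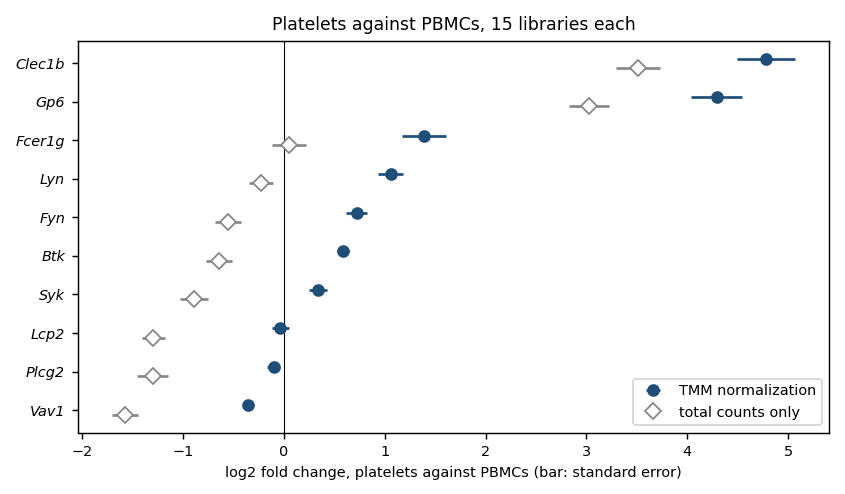
Log2 fold change of platelets against PBMCs (15 libraries each, edgeR, bars are standard errors) for the 10 genes under TMM normalization (filled) and under total counts alone (open). Clec1b and Gp6 lie at 4.78 and 4.29 under TMM and at 3.51 and 3.02 under total counts, whereas Syk, Lyn, Fyn and Btk lie above 0 under the first and below 0 under the second.

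A difference taken inside each library needs no scaling between tissues. It is not per length, so it compares libraries and not the level of one gene with another. The mean log2(CPM + 1) of Gp6 and Clec1b minus that of Syk, Lyn, Fyn, Lcp2, Plcg2, Btk and Vav1 was 2.43 ± 0.49 log2 units in platelets (SD, n = 15) and -1.81 ± 0.72 in PBMCs (SD, n = 15). It ranged from 1.36 to 3.03 in platelets and from -3.42 to -0.62 in PBMCs, without overlap. The lowest platelet value was in pool 5 of the O group, which also had the lowest platelet marker sum of its tissue, and the highest PBMC value was in pool 1 of the O group, which had the highest marker sum among PBMCs. By group the means were 2.65 ± 0.35 in the C group, 2.28 ± 0.36 in the S group and 2.37 ± 0.70 in the O group for platelets, and -1.83 ± 1.02, -1.88 ± 0.25 and -1.70 ± 0.83 for PBMCs (SD, n = 5 each), and the ranges of the groups overlapped in each tissue.

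Levels of different genes were ranked per kilobase of exon. On that scale the order in platelets was Fcer1g (480 ± 317 CPM per kb), Clec1b (415 ± 181), Lyn (115 ± 36.6), Gp6 (108 ± 46.7), Syk (61.2 ± 9.20), Fyn (51.6 ± 12.4), Plcg2 (40.1 ± 5.83), Btk (32.6 ± 3.40), Vav1 (28.1 ± 2.38) and Lcp2 (25.2 ± 6.01; SD, n = 15 each). The neighbors Fcer1g and Clec1b, Lyn and Gp6, Syk and Fyn, Fyn and Plcg2, and Vav1 and Lcp2 differed by less than the larger SD of the pair. In PBMCs the order began with Fcer1g (180 ± 32.9), Lyn (55.6 ± 4.78) and Syk (48.7 ± 6.25), and it ended with Btk (21.7 ± 1.98), Clec1b (15.2 ± 8.16) and Gp6 (5.52 ± 2.29). The 2 receptors thus were among the 4 highest in platelets and the lowest in PBMCs. Lengths are the summed exons of each gene in the GENCODE vM21 annotation, and isoforms used in platelets were not known.

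The RNA of both receptors rose and fell with platelet marker RNA in both tissues. Across 15 platelet libraries the log2 level of Clec1b correlated with the summed platelet markers at r = 0.98 (Spearman's rho 0.97, and r = 0.96 without the 2 libraries farthest from the median of Clec1b), Fcer1g at 0.94, Gp6 at 0.86, Fyn at 0.82, Lyn at 0.76, Lcp2 at 0.61, Btk at 0.41, Vav1 at 0.28, Syk at 0.25 and Plcg2 at -0.28. In platelet libraries Gp6 (r = 0.93), Lyn (0.89) and Fyn (0.85) correlated more with Lyz2, the lysozyme gene of myeloid cells, than with the platelet markers. With the other 7 monocyte markers they were at -0.19, 0.24 and -0.08. Across 15 PBMC libraries Clec1b (r = 0.99, rho 1.00) and Gp6 (r = 0.97, rho 0.99) again went with the platelet markers, Fcer1g did so at r = 0.74 but at 0.47 without 2 libraries, and Syk was at -0.37. In PBMCs Fyn went instead with the T cell markers (r = 0.90, rho 0.85) and Btk with the B cell markers (r = 0.76, rho 0.68). These values describe libraries that share depth, composition and groups, and no test was made of them.

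**Figure D3:**
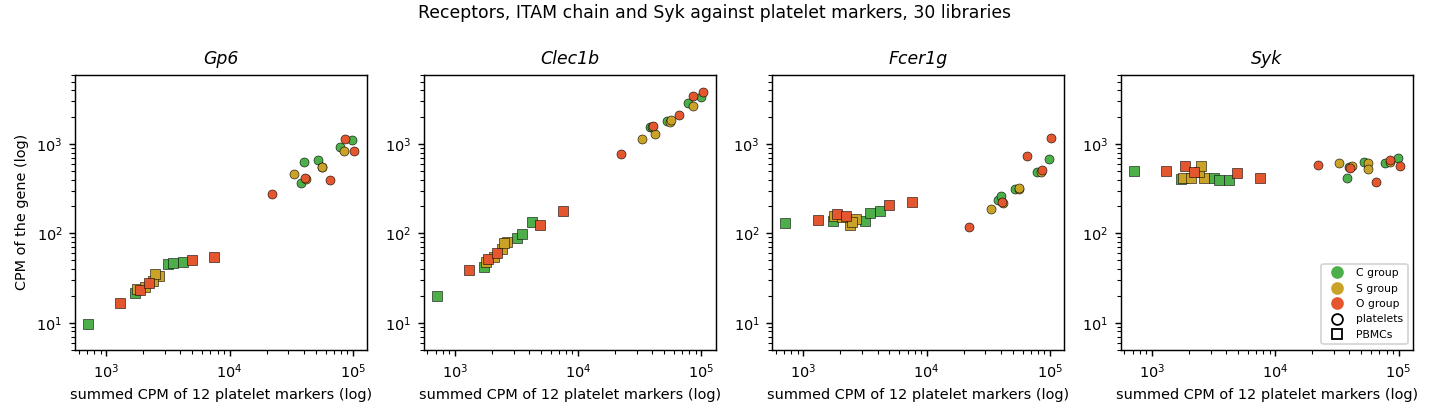
CPM of Gp6, Clec1b, Fcer1g and Syk against the summed CPM of 12 platelet markers in 30 libraries (both axes log, circles platelets, squares PBMCs, colors the C, S and O groups). Clec1b and Gp6 climb with the markers within PBMCs (r = 0.99 and 0.97) and within platelets (r = 0.98 and 0.86), Fcer1g climbs mainly in platelets (r = 0.94), and Syk stays between 374 and 694 CPM in both tissues.

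For each member the genes with the most similar pattern over libraries were ranked. For Clec1b in PBMCs the 3 closest of 7871 genes by Pearson's r were Clu, Pttg1ip and Mpig6b (r = 0.99 each), and for Gp6 they were Mmrn1, Rab27b and Esam (0.98 to 0.99). Mpig6b encodes an ITIM receptor of platelets and Mmrn1 the alpha granule protein multimerin. For Fyn in PBMCs they were Klrd1, Cd7 and Cd5 (0.91 to 0.92), genes of T and NK cells, and for Btk they were Susd1, Ripor2 and Cd40 (0.85 to 0.89), the last a B cell receptor for T cell help. In platelets Gp6 was closest to Hpse, Clic4 and Hacd4 (0.98 to 0.99), Clec1b to Laptm4a, Srgn and Myl6 (0.99), Fcer1g to Myl9, Atp6v0e and P2rx1 (0.99), and Syk to Bap1, Elk1 and Inpp5d (0.94 to 0.96). Fyn there was closest to Slc2a3, Mcur1 and Clic4 (0.97 each), the last of which it had in common with Gp6.

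The receptors also differed from each other when each was set against platelet RNA of the same library. Per kilobase of exon, Gp6 was 0.274 of Clec1b in the median platelet library (0.159 to 0.350) and 0.385 in the median PBMC library (0.265 to 0.437). The log2 ratio was 0.54 lower in platelets (log2 difference -0.54, SE 0.10), with P = 2e-05 in a two-sided permutation test, the smallest that 100000 resamples can give, and 0.00021 adjusted over 21 ratio tests. It was lower in each group taken alone, with exact permutation P = 0.0238 in the C group, 0.00794 in the S group and 0.0238 in the O group. The ratio has no scaling between libraries in it, and its test was added after the values were seen.

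Of 100 CPM of platelet markers, Clec1b had 3.46 CPM in the median platelet library (3.11 to 4.06) and 2.79 CPM in the median PBMC library (2.34 to 3.18), a log2 difference of 0.35 (SE 0.05, permutation P = 2e-05, adjusted 0.00021). Gp6 had 1.02 CPM (0.600 to 1.56) in platelets and 1.24 CPM (0.718 to 1.41) in PBMCs, a log2 difference of -0.18 (SE 0.11, permutation P = 0.101, adjusted 0.42). Without adjustment, P was 0.0192 in an exact sign-flip permutation test over same-numbered pools and 0.0397 in an exact permutation test of the S group alone. The labels do not state that same-numbered pools are pairs. Over genes, deviations from the group means correlated above 0.1 in 2 of 5 such pairs of the C group and 1 of 5 of the S group. In the O group 4 of 5 did. Fcer1g had 0.599 CPM (0.520 to 1.16) in platelets and 5.49 CPM (2.99 to 18.3) in PBMCs, and Syk had 1.08 CPM (0.558 to 2.63) and 20.1 CPM (5.56 to 69.1), so both were higher per platelet marker in PBMCs, without overlap.

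In platelets the ratio of Clec1b to the markers was lower in the S group (median 3.17 of 100, range 3.11 to 3.46) than in the C group (3.70, 3.42 to 4.06) and the O group (3.76, 3.27 to 4.03). The log2 differences were -0.19 for both (SE 0.06 each, exact permutation P = 0.0238 each, 0.125 adjusted over 21), so neither passed the correction, and the ranges overlapped. In PBMCs the S group median was 2.81 of 100 against 2.80 in the C group and 2.70 in the O group. None of the other group differences in Gp6 to Clec1b, Gp6 to markers or Clec1b to markers had an exact permutation P under 0.05 (lowest 0.159).

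**Figure D4:**
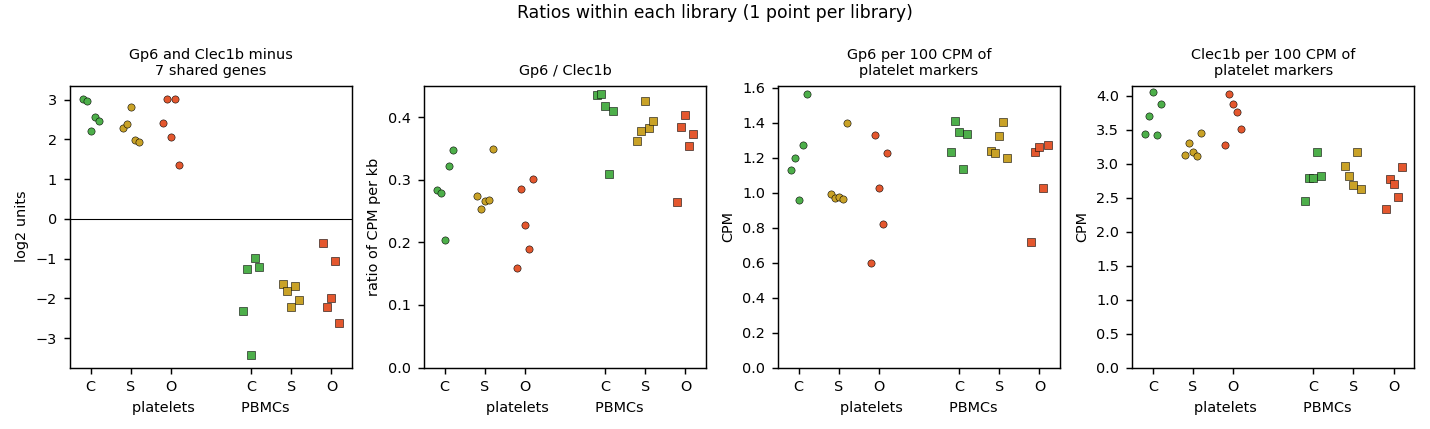
Ratios inside each library for platelets (circles) and PBMCs (squares) by group: log2 level of the 2 receptors minus that of the 7 shared genes, Gp6 over Clec1b, and Gp6 and Clec1b for each 100 CPM of summed platelet markers. The first runs from 1.36 up in platelet libraries and from -0.62 down in PBMC libraries, Gp6 over Clec1b per kilobase has medians of 0.274 and 0.385, and the Clec1b share has medians of 3.46 and 2.79.

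The stretch before the start of transcription is shown for both receptors, whose RNAs moved together, and for Fcer1g and Vav1, which are used by leukocytes too. RefSeq promoter entries of build GRCm38.p6 held 9 of the 10 genes (Syk with 2 starts), each read here as the 250 bases before the start. They were searched on both strands for AGATAA or TGATAA, letters that GATA factors of megakaryocytes and erythroid cells are known to bind. GGAAG, a form of the ETS factor site, was searched in the same way. Other forms of either site were not searched, so a promoter without a match can still hold them. Capitals mark the matches, which are a description of letters and not of binding. The positions are chr7:4397745-4397994 on the minus strand for Gp6, chr6:129397047-129397296 on the plus strand for Clec1b, chr1:171234350-171234599 on the minus strand for Fcer1g and chr17:57278850-57279099 on the plus strand for Vav1, and each is written 5′ to 3′ on the gene's strand.
Gp6: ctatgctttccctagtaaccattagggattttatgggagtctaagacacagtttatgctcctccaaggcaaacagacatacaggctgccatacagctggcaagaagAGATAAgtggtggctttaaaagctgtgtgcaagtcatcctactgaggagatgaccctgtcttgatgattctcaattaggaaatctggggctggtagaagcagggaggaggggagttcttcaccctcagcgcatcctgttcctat
Clec1b: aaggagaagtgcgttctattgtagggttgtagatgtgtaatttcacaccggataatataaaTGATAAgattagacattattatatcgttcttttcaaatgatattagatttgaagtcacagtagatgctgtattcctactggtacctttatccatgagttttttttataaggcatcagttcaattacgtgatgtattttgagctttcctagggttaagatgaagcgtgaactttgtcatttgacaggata
Fcer1g: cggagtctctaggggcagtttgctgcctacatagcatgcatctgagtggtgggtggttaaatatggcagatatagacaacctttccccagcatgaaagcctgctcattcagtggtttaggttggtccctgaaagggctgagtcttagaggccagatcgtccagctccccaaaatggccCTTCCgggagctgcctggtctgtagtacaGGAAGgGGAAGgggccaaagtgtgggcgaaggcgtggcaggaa
Vav1: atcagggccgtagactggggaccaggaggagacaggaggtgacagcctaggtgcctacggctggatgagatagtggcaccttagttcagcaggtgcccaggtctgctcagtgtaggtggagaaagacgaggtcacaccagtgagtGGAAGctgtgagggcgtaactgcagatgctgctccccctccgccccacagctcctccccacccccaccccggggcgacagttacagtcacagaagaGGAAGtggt

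Gp6 and Clec1b each had 1 GATA match and no ETS match, Fcer1g had 3 ETS matches and no GATA match, and Vav1 had 2 ETS matches and no GATA match. Lcp2 had 2 of each, Plcg2 had 1 GATA match, Btk had 1 ETS match, Fyn had neither, and of the 2 Syk starts 1 had a GATA match. A GATA match was thus not particular to the receptors. Over 32851 mouse promoters of the same length, 16.6% held a GATA match and 64.1% an ETS match. The receptor with the lower G and C content was Clec1b at 33.2%, against 47.2% for Gp6.

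Fcer1g varied most in platelets. It was 677, 482, 239, 314 and 265 CPM in the C group, 317, 326, 492, 217 and 189 CPM in the S group, and 734, 513, 224, 1183 and 118 CPM in the O group, a 10.0-fold range within the O group alone. Pool 4 of the O group was highest and pool 5 lowest, and the groups overlapped. In PBMCs it was 137.4, 138.4, 131.5, 178.8 and 167.8 CPM in the C group, 146.7, 123.3, 155.1, 134.2 and 151.4 CPM in the S group, and 225.9, 165.0, 156.9, 208.7 and 139.5 CPM in the O group. The O group held the 2 highest PBMC values, in pools 1 and 4, which were also the 2 with the most platelet marker RNA.

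Syk, the kinase that both receptors need, overlapped between the tissues. In platelets it was 694, 611, 413, 632 and 552 CPM in the C group, 607, 526, 635, 572 and 613 CPM in the S group, and 374, 668, 542, 570.5 and 584 CPM in the O group. In PBMCs it was 402, 416, 496, 397 and 392 CPM in the C group, 419, 483, 416, 565 and 413 CPM in the S group, and 419.7, 567, 481, 475 and 503 CPM in the O group. In PBMCs pool 3 was the highest of the C group and pool 4 of the S group. In the O group alone the platelet excess under TMM was not called (log2 fold change 0.16, edgeR adjusted P = 0.50).

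Lyn and Fyn, the Src family kinases that start ITAM signalling, were 277 to 853 CPM and 151 to 346 CPM in platelets, with medians of 445 and 209. In PBMCs they were 192 to 259.8 CPM and 106 to 161 CPM, with medians of 222 and 138. Btk was 88.7 to 121 CPM in platelets and 60.4 to 83.6 CPM in PBMCs, and Vav1 was 88.5 to 119 CPM and 122 to 152 CPM, the only member with every platelet library under every PBMC library, although in the S group alone its difference was not called (log2 fold change -0.13, edgeR adjusted P = 0.31). Plcg2 was 126 to 217 CPM in platelets and 157 to 204 CPM in PBMCs, and Lcp2 82.8 to 174 CPM and 102 to 132 CPM.

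No member was called between groups in platelets. In edgeR at an adjusted P under 0.05, 0 of 10 were called between the S and C groups, where 0.00754% of 13268 genes were called, 0 of 10 between the S and O groups and 0 of 10 between the O and C groups, where 0% of genes were called. At an unadjusted P under 0.05, 0 of 10 members passed in each, against 6.42%, 13.9% and 4.79% of all genes. DESeq2 also called 0 at the adjusted threshold in each, and at the unadjusted one it had 0, 1 and 1.

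For the receptors in platelets the intervals were wide. Gp6 differed between the S and C groups by a log2 fold change of -0.36 (SE 0.28), between the S and O groups by -0.02 (SE 0.35) and between the O and C groups by -0.33 (SE 0.40). Clec1b differed by -0.31 (SE 0.29), -0.33 (SE 0.39) and 0.03 (SE 0.42), and Fcer1g by -0.32 (SE 0.30), -0.76 (SE 0.51) and 0.45 (SE 0.53). Their smallest adjusted P in edgeR was 0.51, for Fcer1g between the S and O groups. In the same order of comparisons, Fcer1g ranged from -0.55 to -0.041, from -1.03 to -0.32 and from 0.0049 to 0.77 without single pools. Pools of the same treatment spread widely, as Gp6 ranged 3.06-fold within the C group and 4.18-fold within the O group.

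Lcp2, which encodes the scaffold SLP-76, was the member nearest to the threshold in platelets. It was 120.6, 104.0, 99.1, 88.0 and 82.8 CPM in the C group, 105.0, 109.7, 108.3, 95.4 and 86.0 CPM in the S group, and 173.7, 148.5, 106.0, 157.4 and 103.9 CPM in the O group. Pools 1, 2 and 4 of the O group were above all other platelet pools, and pools 3 and 5 were among them. The log2 fold change was 0.44 between the O and C groups (SE 0.20, adjusted P = 0.91) and -0.38 between the S and O groups (SE 0.18, adjusted P = 0.37). Neither difference passed an unadjusted P of 0.05 in edgeR, and both did in DESeq2, with no adjusted call. In the O against C comparison all 7 tested neutrophil markers had positive values (median log2 fold change 1.86, 3 with an unadjusted edgeR P under 0.05) and 6 of 9 T cell markers were lower by that threshold. Across the 15 platelet libraries the log2 level of Lcp2 correlated with the neutrophil markers at r = 0.74, with the B cell markers at -0.80 and with the T cell markers at -0.78, and the part of these cells in its values was not tested. Lcp2 overlaps the antisense gene 4930469K13Rik, which held 54 counts against 19270 in platelet libraries, and the counting was not stated to use strand.

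A difference between tissues in these changes was tested as an interaction over 16498 genes. For Lcp2 the platelet change minus the PBMC change was 0.40 for the O against C groups (SE 0.18, edgeR adjusted P = 0.72) and -0.44 for the S against O groups (SE 0.18, adjusted P = 0.29). Lcp2 was the only member under 0.05 unadjusted in either, where 6.59% and 13.6% of genes were, and for S against C no member was (5.38% of genes). No member passed the adjusted threshold in any of the 3, in edgeR or in DESeq2.

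**Figure D5:**
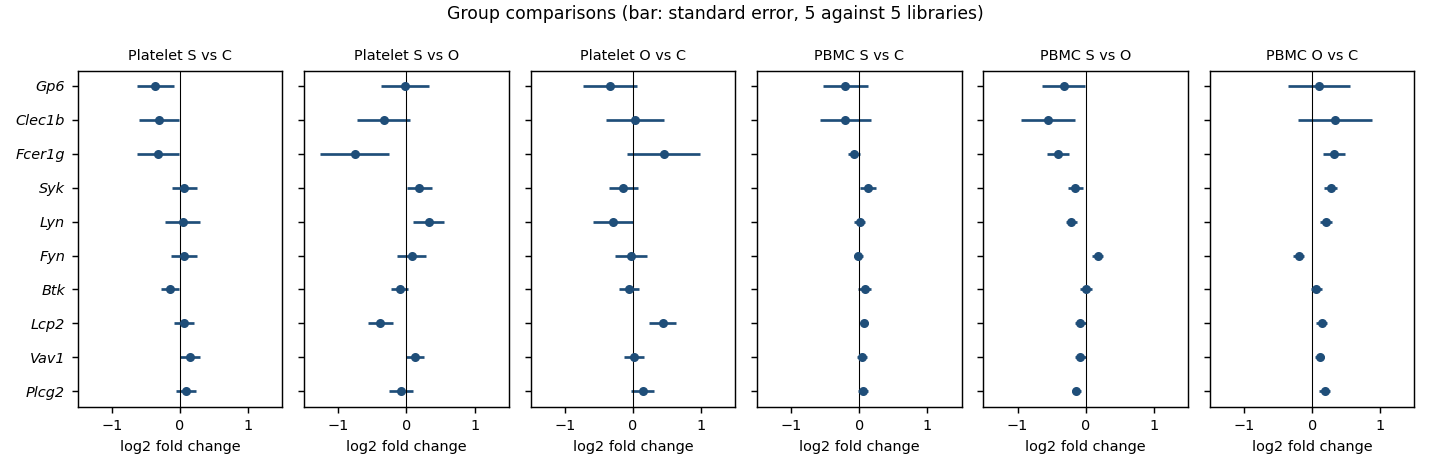
Log2 fold change with its standard error for the 10 genes in the 6 group comparisons (edgeR, 5 against 5 pools each, first group over second). Receptors and Fcer1g have bars of 0.28 to 0.53 in platelets, no gene is called at an adjusted P under 0.05, and the PBMC bars of the shared genes are 0.05 to 0.11.

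In PBMCs the shared genes were measured more tightly, and some differences with the O group were under the unadjusted threshold. Between the O and C groups 4 of 10 members had an edgeR P under 0.05, where 11.9% of genes did, and 0 of 10 were called after adjustment, where 0% of genes were. DESeq2 had 5 members under 0.05 unadjusted and 0 adjusted. Syk had a log2 fold change of 0.27 (SE 0.10, edgeR adjusted P = 0.37), Lyn 0.21 (SE 0.09, adjusted P = 0.41), Plcg2 0.18 (SE 0.07, adjusted P = 0.38) and Fyn -0.20 (SE 0.08, adjusted P = 0.38). The count rested on single pools: without pool 5 of the C group or pool 2 of the O group it was 0, without pool 2 of the C group 1, and without pool 4 of the C group or pool 1 of the O group 2.

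Fyn in PBMCs was 132.8, 160.9, 131.3, 145.4 and 159.0 CPM in the C group, 148.3, 155.2, 133.8, 137.6 and 145.8 CPM in the S group, and 106.4, 121.7, 140.5, 124.0 and 119.7 CPM in the O group. All O group pools but pool 3 were below every C and S group pool. Lyn was 192.0, 209.3, 209.6, 259.8 and 222.3 CPM in the C group, 208.5, 215.3, 234.3, 220.3 and 213.8 CPM in the S group, and 244.5, 241.5, 248.6, 252.3 and 224.6 CPM in the O group. The highest Lyn value was in pool 4 of the C group, so the groups overlapped.

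Cell markers moved with these differences. Between the O and C groups of PBMCs, 8 of 9 T cell markers had an unadjusted edgeR P under 0.05 and were lower (median log2 fold change of the 9 -0.35), 3 of 7 NK cell markers were lower (median -0.36), and 7 of 7 erythroid markers were higher (median 2.82), none at an adjusted P under 0.05. None of the neutrophil, monocyte or platelet markers passed the unadjusted threshold, but 8 of 8 neutrophil (median 1.65), 8 of 8 monocyte (median 0.14) and 10 of 11 tested platelet markers (median 0.65) had positive values. Of the B cell markers 1 of 8 had a positive value (median -0.08), and 0 passed that threshold. The T cell ITAM chains Cd3d (-0.43), Cd3e (-0.46) and Cd3g (-0.42) and the T cell kinases Zap70 (-0.33) and Lck (-0.32) had negative values beside Fyn. The part of cell composition in the Fyn, Syk, Lyn and Plcg2 differences was not tested, and in bulk RNA it cannot be told apart from a change per cell.

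Between the S and O groups of PBMCs 3 of 10 members had an unadjusted edgeR P under 0.05, where 12.2% of genes did, and 0 of 10 were called after adjustment, where 0% of genes were. Fcer1g had a log2 fold change of -0.41 (SE 0.16, edgeR adjusted P = 0.35), Lyn -0.21 (SE 0.08, adjusted P = 0.34) and Fyn 0.17 (SE 0.08, adjusted P = 0.39). DESeq2 had 4 members unadjusted and 0 adjusted. Without pool 4 of the O group the count was 0, and without pool 1 of the O group or pool 2 of the S group it was 1. In the same comparison 8 of 8 B cell markers had positive values (median log2 fold change 0.20), with 0 under the unadjusted threshold. Of the other markers, 7 of 7 NK cell and 7 of 9 T cell markers passed it with positive values and 7 of 7 erythroid markers with negative ones. Values were also negative for 8 of 8 neutrophil markers (median log2 fold change -1.28, 2 under the unadjusted threshold), for 8 of 8 monocyte markers (median -0.27, 0 under it) and for 10 of 11 tested platelet markers (median -0.89, 1 under it), and the part of these cells in the Fcer1g, Lyn and Fyn differences was not tested. This comparison and the last share the O group, so their calls are not independent.

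The S and C groups of PBMCs gave 0 of 10 members at either threshold, where 0.033% of genes were called after adjustment and 2.64% passed unadjusted. DESeq2 gave 0 of 10 at both. With any 1 pool left out, pool 3 of the S group among them, edgeR also gave 0 at both. The 7 shared genes had log2 fold changes of -0.01 to 0.13 with standard errors of at most 0.11. Gp6 and Clec1b were both at -0.20, with SE of 0.34 and 0.38. Between the O and C groups of PBMCs Gp6 was at 0.10 (SE 0.46) and Clec1b at 0.33 (SE 0.54), and between the S and O groups they were at -0.32 (SE 0.32) and -0.55 (SE 0.40).

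The other genes of the pathway were read from lists chosen by role. Of 25 tested kinases and adaptors 13 were called higher and 8 lower in platelets than in PBMCs, among them Src (log2 fold change 3.48), which primes ITAMs and integrins, Skap2 (2.97) and Rac1 (2.61), by edgeR under TMM, where 36.7% of all genes were higher and 44.7% lower. Of 16 inhibitors of ITAM signalling 9 were higher and 6 lower, with the phosphatase Ptpn11 (2.90), Ubash3b (2.90) and the ITIM receptor Pecam1 (2.61) at the smallest P. Of 12 calcium and protein kinase C effectors 8 were higher and 3 lower, with Rap1b (2.41), Rasgrp2 (2.14) and Prkca (1.87), which take part in integrin activation and secretion, among the first. All 7 leukocyte ITAM chains were lower, from Cd3e at -2.52 to Cd79b at -0.58. The lists had medians of 0.30, 0.32, 1.52 and -1.42, beside -0.12 for all genes. Under total counts these splits moved to 6 higher and 17 lower, 4 and 11, 5 and 5, and 0 and 7, where 12.9% and 78.7% of all genes were higher and lower, while the 9 genes just named as higher stayed above 0 (0.60 to 2.21).

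Collagen genes, whose proteins are GPVI ligands, were detected in the platelet libraries. Col1a1, Col1a2 and Col3a1 were 6.97 to 7.30 log2 units higher there, and Col1a1 was 45.4 ± 23.6 CPM in platelets and 0.308 ± 0.169 CPM in PBMCs (SD, n = 15 each). The source of this RNA was not tested. Pdpn, the ligand of CLEC-2, did not pass the filter on low counts.

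Between groups, no gene of these lists was called after adjustment in platelets, and at the unadjusted threshold leukocyte ITAM chains differed. Between the S and O groups 6 of 7 had positive values with edgeR P under 0.05, where 13.9% of all genes passed in either direction, with Cd3e at 1.80 (SE 0.43), Cd79a at 1.21 (SE 0.27) and Cd79b at 1.06 (SE 0.26), and between the S and C groups 4 of 7, with Cd3e at 0.99 (SE 0.34), where 6.42% of all genes passed. Between the O and C groups 2 of 7 passed with negative values, where 4.79% of genes did. In the first comparison 6 of 8 B cell and 7 of 9 T cell markers also passed the unadjusted threshold with positive values and 5 of 7 tested neutrophil markers with negative ones, and between the S and C groups 3 of 8 B cell, 3 of 9 T cell and 2 of 7 NK cell markers passed with positive values. Of the kinases and adaptors only Src (0.80, SE 0.22, edgeR adjusted P = 0.25) and Vav3 (-0.47, SE 0.17, adjusted P = 0.30) passed unadjusted between the S and O groups, and none of the 10 members did. With a leukocyte marker score as a covariate the value of Gp6 between the S and O groups became 0.35 and that of Clec1b 0.04, still not called.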

How the data were processed

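Raw read counts per gene in 15 platelet and 15 PBMC libraries were deposited by the authors, who removed adapter, poly-N and low-quality reads, aligned the rest with HISAT2 2.0.5 and counted with featureCounts 1.5.0-p3. The notes name the build mm9, while gene and promoter positions here are those of GRCm38. The counts were used as deposited. R 4.3.3 with edgeR 4.0.16 (quasi-likelihood F test, filterByExpr, TMM, Benjamini-Hochberg) was fitted to each pair of groups alone and over all 30 libraries for tissue and interaction, and DESeq2 1.42.0 was an alternative. Ratios used exact or 100000-resample permutation tests (scipy 1.17.1). A call is an adjusted P under 0.05.

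Named are all 10 members, up to 3 genes per pathway list and comparison with the smallest P, and the 3 genes most correlated with a member among those of at least 10 CPM. Members and lists were chosen with earlier results of these data known. Same-numbered PBMC pools of the S and C groups deviated together (correlations 0.578, 0.342, 0.384, 0.370 and 0.301). No label pairs them, and pools with different numbers were not compared, so these values do not establish pairs. Fits were checked on simulated counts for the S and C groups. Of 100 genes given a log2 change of 1, 37 were recovered at an adjusted P under 0.05 in platelets and 70 in PBMCs. Of 100 given a log2 change of 2, 93 and 95 were recovered. Smaller changes in platelets can thus be missed. Alternatives were the filter, the normalization, DESeq2, a replicate block, a leukocyte covariate, single groups and leaving out each pool. No libraries were found to be duplicates.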

Additional observations from a re-analysis of the deposited data

Results flagged for a closer look

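Of 60 sets of 5 pools (10 genes, both tissues, 3 groups), 5 had a pool whose gap to its nearest neighbor exceeded Dixon's 95% limit for 5 samples, where chance gives about 1 in 20. In PBMCs Syk was highest in pool 3 of the C group at 495.7 CPM, the PBMC library with the least platelet marker RNA, Lcp2 was highest in pool 5 of the C group at 120.1 CPM, and Btk was highest in pool 4 of the S group at 83.64 CPM. In platelets Plcg2 was highest in pool 2 of the C group at 183.7 CPM and lowest in pool 1 of the O group at 126.1 CPM, the library with the largest erythroid share (41.2% of its counts). What set these pools apart was not tested.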

How the results depend on the processing

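Under every alternative run, no member passed the adjusted threshold in the 6 group comparisons or the 3 interactions, and 8 passed between tissues, or 7 within the O or the S group alone; on total counts Fcer1g and Lyn gave way to Lcp2 and Plcg2. Members under an unadjusted P of 0.05 numbered 2 for O against C and 1 for S against O in PBMCs with all genes of at least 1 count, 1 for O against C in platelets with DESeq2, the leukocyte marker covariate, the replicate block or RLE size factors, and 1 for S against O in platelets with DESeq2. Leaving out 1 library at a time, these counts ranged from 0 to 4 in both PBMC comparisons, from 0 to 1 for O against C in platelets (1 without C1, O3 or O5) and from 0 to 2 for S against O in platelets (1 without O3, 2 without O5). The tissue difference turned to a log2 value of -0.89 for Syk, -0.23 for Lyn, -0.55 for Fyn and -0.64 for Btk on total counts, as that scaling itself shifts every gene. For Lcp2 it turned to 0.0065 with all genes, 0.013 with DESeq2, 0.24 in the O group only and 0.014 with RLE size factors, and for Plcg2 to 0.049 in the S group only. Without single libraries, Lcp2 ranged from -0.071 to 0.15 and Plcg2 from -0.12 to 0.044 between tissues, above 0 without Platelet O5. Receptor differences between groups, none of them called, also changed sign: with the covariate to 0.35 for Gp6 and 0.041 for Clec1b (platelets, S against O) and -0.053 for Clec1b (platelets, O against C). Without single libraries, the ranges were -0.24 to 0.28 for Gp6 (platelets, S against O), -0.20 to 0.26 for Clec1b (platelets, O against C), -0.15 to 0.29 for Gp6 and -0.10 to 0.63 for Clec1b (PBMCs, O against C), and -0.46 to 0.087 for Clec1b (PBMCs, S against C). Gp6 relative to the platelet markers, in S group libraries only, was -0.29 (exact permutation P = 0.0397, unadjusted). The cause of these changes was not tested.

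Among the comparisons, S against C in PBMCs was the one in which every same-numbered pair of pools deviated together with a correlation over 0.1. Most pairs did so in S against O in PBMCs, O against C in platelets and between tissues in the O group (4 of 5 in each), and in S against O in platelets (3 of 5). The replicate block changed no adjusted call of a member in any comparison. It gave log2 values of 0.0063 for Clec1b in PBMCs (S against C), and in platelets of 0.10 for Gp6 (S against O) and -0.10 for Clec1b (O against C), each a change of sign. Between tissues under the block, Gp6 was at 4.30, Clec1b at 4.83 and Fcer1g at 1.19. An exact sign-flip permutation test over the 15 same-numbered pairs, added after the values were seen, gave P = 0.000122 for Gp6 relative to Clec1b and for Clec1b relative to the platelet markers, and P = 0.0192 for Gp6 relative to the markers (log2 difference -0.18), none of them adjusted. Between tissues, 2 of 5 pairs of the C group and 1 of 5 of the S group had a correlation over 0.1. Pool numbers thus do not establish pairs in those groups.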
